A study of Homo sapiens with 13 samples.

Results

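Promoters that carried H3K27 acetylation but no RNA polymerase II peak were examined in MDA-MB-231 cells. A promoter was taken as the 3 kb window centred on the transcription start site (TSS) of the canonical transcript of a protein-coding gene, and the members were chosen by an H3K27ac region that reached into the window by 1 bp or more, with no Pol II peak reaching into it. This rule selected 977 of 19894 windows, or 4.91% of all windows and 8.0% of the 12218 windows with H3K27ac. The other 11241 windows with H3K27ac overlapped a Pol II peak and served as the comparison.

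The cells, MDA-MB-231, are an established line of a human triple-negative breast tumour of the basal b type, and they were left untreated. Chromatin was immunoprecipitated with antibodies to H3K4me1 (Ab8895), H3K4me3 (Ab8580), H3K27ac (Ab4729), Pol II (sc-55492) and CTCF (C15410210), in 2 replicate libraries per antibody. The p300/CBP antibody (Ab14984) gave 1 library, made from pooled immunoprecipitations. The replicates had been merged before peaks were called, so no replicate error could be computed, and the peak lists hold positions without heights, so the depth behind them is unknown. Shares of promoters are given with 95% Wilson intervals and differences between shares with 95% Newcombe intervals. Differences weighted over strata have 95% normal-approximation intervals instead. The interval of the CpG median difference is an order-statistic interval of the members' median, with the median of the promoters with Pol II held fixed. All of these cover counting error over promoters and not the spread between cultures. The promoters of 8 of 8 genes that define this cell line, among them VIM, ZEB1 and CD44, carried both H3K27ac and Pol II. H3K27ac was found at 0 of 4 blood or endothelial marker promoters and at 4 of 10 luminal ones, namely KRT8, KRT18, ERBB3 and FOXA1. These 4 luminal promoters also had Pol II, so none of the marker genes was a member.

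H3K27ac is deposited by the acetyltransferases p300 and CBP and marks active promoters and active enhancers. H3K4me3 is concentrated around the start sites of active or poised genes, most of which lie in CpG islands, whereas H3K4me1 flanks active promoters and covers enhancers. Pol II usually accumulates just downstream of an active start site, and CTCF binds insulators, loop anchors and some promoters.

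The members differed first in their sequence, which the rule did not use. The following 7 promoters are shown because they span this range: KCNS3, EGR2 and KLHL29 carried H3K4me3 in the window and ITGBL1, FAM186A, SPARC and IFITM1 did not. Each line gives the 150 bases before the TSS on the gene strand, 5′ to 3′, in build GRCh37, with capitals at every CpG dinucleotide.
KCNS3 (chr2:18059784-18059933, + strand): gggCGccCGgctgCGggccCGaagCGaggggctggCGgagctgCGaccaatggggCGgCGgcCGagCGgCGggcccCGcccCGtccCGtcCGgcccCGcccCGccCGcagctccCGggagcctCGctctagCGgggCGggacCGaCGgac
EGR2 (chr10:64576127-64576276, - strand): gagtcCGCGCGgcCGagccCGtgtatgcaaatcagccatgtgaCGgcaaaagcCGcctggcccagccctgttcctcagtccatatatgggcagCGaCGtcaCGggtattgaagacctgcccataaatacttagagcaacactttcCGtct
KLHL29 (chr2:23607900-23608049, + strand): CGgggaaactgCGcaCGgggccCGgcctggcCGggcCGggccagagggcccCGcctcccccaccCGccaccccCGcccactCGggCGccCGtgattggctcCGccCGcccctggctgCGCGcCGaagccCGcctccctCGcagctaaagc
ITGBL1 (chr13:102104876-102105025, + strand): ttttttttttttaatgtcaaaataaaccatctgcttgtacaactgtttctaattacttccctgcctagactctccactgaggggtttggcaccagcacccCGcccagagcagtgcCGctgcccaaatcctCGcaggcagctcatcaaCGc
FAM186A (chr12:50790393-50790542, - strand): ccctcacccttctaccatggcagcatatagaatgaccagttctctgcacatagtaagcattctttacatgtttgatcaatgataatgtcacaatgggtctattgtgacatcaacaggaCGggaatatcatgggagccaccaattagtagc
SPARC (chr5:151066477-151066626, - strand): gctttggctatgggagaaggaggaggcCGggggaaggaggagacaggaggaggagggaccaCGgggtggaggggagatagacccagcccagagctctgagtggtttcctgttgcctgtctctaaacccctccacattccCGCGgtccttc
IFITM1 (chr11:313890-314039, + strand): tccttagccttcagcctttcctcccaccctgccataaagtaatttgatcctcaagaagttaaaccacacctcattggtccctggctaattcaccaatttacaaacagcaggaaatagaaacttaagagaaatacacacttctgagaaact

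The sequences held 25 CpG dinucleotides before the TSS of KCNS3, 19 before that of KLHL29 and 11 before that of EGR2. The promoters without H3K4me3 held 4 in ITGBL1, 4 in SPARC, 1 in FAM186A and 0 in IFITM1. These sequences were chosen to show both ends of the range, and other members fell between or against this order. The CpG observed over expected ratio around the TSS was 0.0790 at ZBTB18 and 0.116 at KLHL4, which had H3K4me3, and 0.731 at PHLDA3, which did not.

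Another 5 members are shown because they held a TATA box (TATAAA, gene strand) close to the usual distance from the start site. A match between 45 and 15 bases before the TSS occurred at 3.89% of the members and 3.94% of all windows. Capitals mark TATAAA and the AP-1 motif TGANTCA in the same 150 bases.
KRTAP2-3 (chr17:39216367-39216516, - strand): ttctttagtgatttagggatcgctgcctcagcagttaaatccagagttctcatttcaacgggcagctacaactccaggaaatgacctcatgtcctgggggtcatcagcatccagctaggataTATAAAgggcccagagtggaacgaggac
KRTAP4-7 (chr17:39240252-39240401, + strand): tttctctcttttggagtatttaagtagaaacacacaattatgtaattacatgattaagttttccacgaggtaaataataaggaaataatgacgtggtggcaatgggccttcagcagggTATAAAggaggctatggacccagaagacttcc
KRTAP4-8 (chr17:39254395-39254544, - strand): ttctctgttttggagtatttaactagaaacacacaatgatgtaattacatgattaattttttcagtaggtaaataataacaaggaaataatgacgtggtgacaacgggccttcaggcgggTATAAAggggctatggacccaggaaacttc
IL7R (chr5:35856843-35856992, + strand): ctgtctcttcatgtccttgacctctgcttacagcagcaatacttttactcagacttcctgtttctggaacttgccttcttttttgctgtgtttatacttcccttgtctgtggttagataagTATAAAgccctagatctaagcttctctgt
CXCL8 (chr4:74606136-74606285, + strand): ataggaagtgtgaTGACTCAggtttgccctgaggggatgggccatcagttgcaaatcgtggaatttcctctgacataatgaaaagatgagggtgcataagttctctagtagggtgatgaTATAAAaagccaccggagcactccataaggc

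The first base of TATAAA lay 28 bases before the TSS of KRTAP2-3, 32 before that of KRTAP4-7, 30 before that of KRTAP4-8, 29 before that of IL7R, and 31 before that of CXCL8. The CXCL8 promoter also held an AP-1 motif that began 137 bases before the TSS. KRTAP4-7 and KRTAP4-8 belong to a family of similar copies, and the authors had kept uniquely mapped reads alone.

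The H3K27ac of the members was short, which is a description because the mark was used to select them. The members had a median of 700 bp of H3K27ac in the window, with quartiles of 350 and 1200 bp and a range of 4 to 3000 bp, compared with a median of 2065 bp at the promoters with Pol II. An H3K27ac region covered the TSS base itself in 303 members (31.0%), compared with 81.5% of the promoters with Pol II. The mark lay downstream of the TSS alone in 286 members (29.3%), upstream alone in 247 (25.3%) and on both sides without covering the TSS in 141 (14.4%). Members touched 1114 H3K27ac regions, and 43 members shared a region with another member.

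Among the promoters with H3K27ac, the share without a Pol II peak was 61.1% where H3K27ac covered up to 500 bp of the window and 0.765% where it covered more than 2500 bp. The longest H3K27ac regions over a member's TSS were found at ITGBL1, an integrin beta-like secreted protein (10650 bp), the keratin-associated protein gene KRTAP4-8 (8900 bp), the transporter gene ABCC3 (8000 bp), DLG4, which encodes a postsynaptic scaffold (7700 bp), the transporter gene ABCC2 (7300 bp) and TRIM55 (7150 bp). Of these 6 genes, 5 had a Pol II peak less than 4 kb from the TSS, at 3.12, 2.91, 1.96, 2.30 and 2.31 kb, and ABCC3 had its nearest at 33.6 kb. At the other end, the window of PLPPR3 held 4 bp of H3K27ac, that of GGT7 8 bp, and those of PYDC5 and RXFP3 10 bp each. In all, 30 members had less than 150 bp of H3K27ac in the window.

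The nearest Pol II peak lay at a median of 39.6 kb from the TSS of the members, with quartiles of 10.2 and 106 kb. It was within 5 kb at 156 members (16.0%) and at 100 kb or more at 271 (27.7%). Just inside the edge of the rule, the nearest Pol II peak lay 1.51 kb from the TSS of TBR1, 1.52 kb from those of SLC17A7 and STC2 and 1.53 kb from that of KCNAB3. Just outside it, the Pol II peak overlapped the window by 1 bp at ENSG00000285304, 22 bp at LRRFIP2, 25 bp at SH3BP1 and 32 bp at C16orf92. The most isolated members were PABPC4L, with the nearest Pol II peak at 2476 kb, the receptor gene LRP1B (2201 kb), the neural adhesion gene CNTN5 (1666 kb), KLHL4 (1470 kb) and CDH11, which encodes a mesenchymal cadherin (1285 kb). In 81 members (8.29%), an H3K27ac region that reached into the window touched a Pol II peak outside it.

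**Figure D1:**
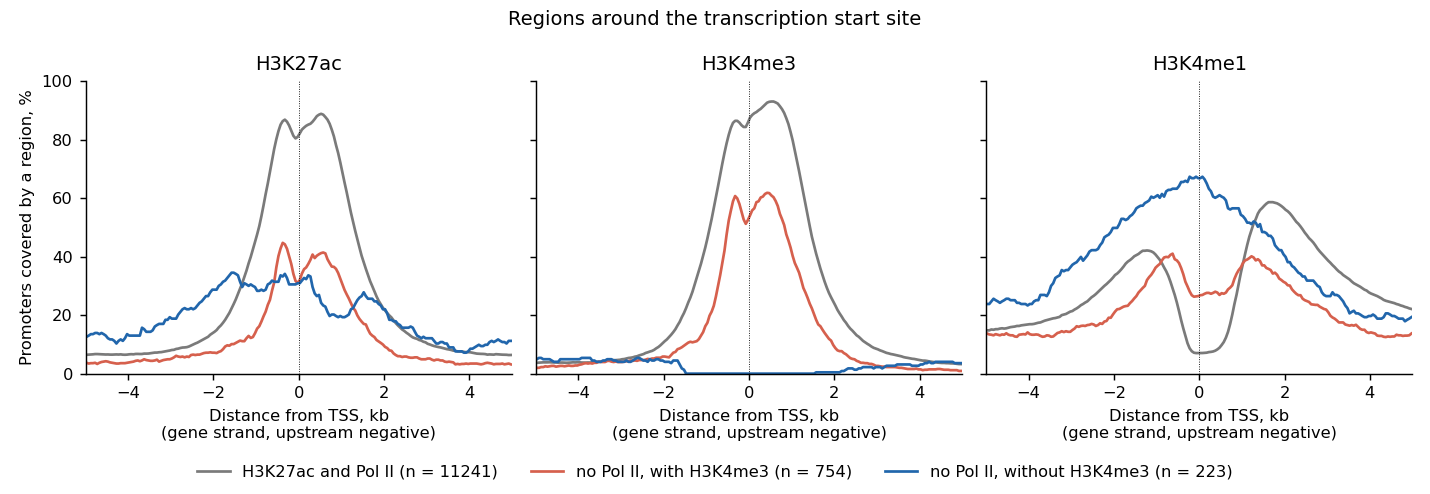
Share of promoters (%, y axis) covered by an H3K27ac, H3K4me3 or H3K4me1 region in 50-bp bins at each distance from the TSS (kb, gene strand), for the 11241 promoters with Pol II (grey), the 754 members with H3K4me3 in the window (red) and the 223 without (blue). H3K4me1 dipped at the TSS in the grey and red groups and was highest close to it in the blue group, and the blue H3K4me3 line is at 0 within the window by construction.

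H3K4me3 was present at most members, but less often than at the promoters with Pol II, and it covered the TSS at a minority. An H3K4me3 region overlapped the window of 754 of 977 members (77.2%, 74.4 to 79.7) and of 11185 of 11241 promoters with Pol II (99.5%, 99.4 to 99.6), against 62.7% of all windows. The difference was -22.3 percentage points (-25.1 to -19.8). Over the TSS base itself the shares were 40.8% and 86.6%, a difference of -45.8 points (-48.9 to -42.6). The difference in H3K4me3 was found in every stratum of H3K27ac length: 72.8% of the members and 92.5% of the promoters with Pol II had the mark where H3K27ac covered up to 500 bp, and 59.1% and 99.9% where it covered more than 2500 bp. Weighted over the 6 strata it was -19.1 points (-22.0 to -16.2). With the wider peaks of every list alone, which admitted 2980 promoters as members, it was -5.85 points (-6.84 to -4.95).

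The longest H3K4me3 regions over a member's TSS belonged to ALOXE3, which encodes an epidermal lipoxygenase (10150 bp), CXXC5, a CpG-binding zinc finger protein (4800 bp), the kinesin gene KIF26B (4100 bp), the secreted ligand gene WNT5A (4100 bp), DLG4 (4050 bp) and the semaphorin gene SEMA3A (3850 bp). At WNT5A, H3K27ac and H3K4me3 each covered all 3000 bp of the window while the nearest Pol II peak was 981 kb away. SEMA3A was similar, with 2454 bp of H3K27ac, 3000 bp of H3K4me3 and the nearest Pol II peak at 1032 kb. KIF26B, in contrast, combined 3000 bp of H3K4me3 with 214 bp of H3K27ac, and its nearest Pol II peak was at 62.7 kb. A Pol II peak lay just beyond the window at ALOXE3 (1.87 kb), DLG4 (1.96 kb) and CXXC5 (2.77 kb).

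H3K4me1 was found in the windows of 795 members (81.4%, 78.8 to 83.7) and of 9630 promoters with Pol II (85.7%, 85.0 to 86.3), against 59.3% of all windows. The difference of -4.30 points (-6.94 to -1.89) depended on where the mark was counted. Over the TSS base H3K4me1 covered 350 members (35.8%, 32.9 to 38.9) and 789 promoters with Pol II (7.02%, 6.56 to 7.51), so the difference was 28.8 points (25.8 to 31.9), in the opposite direction. In 1 kb windows it was 29.4 points (26.0 to 32.7), and within strata of H3K27ac length it was 3.92 points (0.524 to 7.32). In the profiles around the TSS, H3K4me1 at the promoters with Pol II was lowest at the start site (7.01% of promoters in the bin next to it) and reached 42.1% upstream and 56.6% downstream within the window, whereas 26.8% of the members with H3K4me3 and 66.8% of those without it were covered in that bin.

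The direction of the CTCF difference depended on how the peaks were counted. A CTCF peak overlapped 243 member windows (24.9%, 22.3 to 27.7) and 2735 windows with Pol II (24.3%, 23.5 to 25.1), against 17.6% of all windows, and the difference was 0.541 points (-2.19 to 3.45). It was -2.83 points (-4.34 to -1.26) with the wider peaks of every list alone and 3.82 points (0.369 to 7.27) within strata of H3K27ac length. Over the TSS base CTCF was found at 4.40% and 5.87%.

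p300/CBP peaks were rare at promoters but, with all peaks of the list counted, more frequent at the members. They overlapped 35 member windows (3.58%, 2.59 to 4.94) and 86 windows with Pol II (0.765%, 0.620 to 0.944), against 0.769% of all windows, and the difference was 2.82 points (1.81 to 4.18). The share of members with p300/CBP was 0.840% (3 of 357) where H3K27ac covered up to 500 bp, 3.89% (7 of 180) between 1000 and 1500 bp, and 36.4% (8 of 22, 19.7 to 57.0) above 2500 bp, where 2.17% of the promoters with Pol II had a peak. These 8 included KRTAP2-3, KRTAP4-7 and KRTAP20-4 of the clustered keratin-associated protein family, so the interval treats related windows as independent. This family gave 6 of the 35 members with p300/CBP. Of the 35 members with p300/CBP, 34 had H3K4me1 and 24 lacked H3K4me3, and in 25 the p300/CBP peak touched the H3K27ac region of the window. With the peaks limited to those that touched an H3K27ac region, a setting added once the values were known, the difference was 1.82 points (0.982 to 3.02). With the wider peaks of every list alone it was 0.129 points, and its interval of -0.220 to 0.554 included 0.

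**Figure D2:**
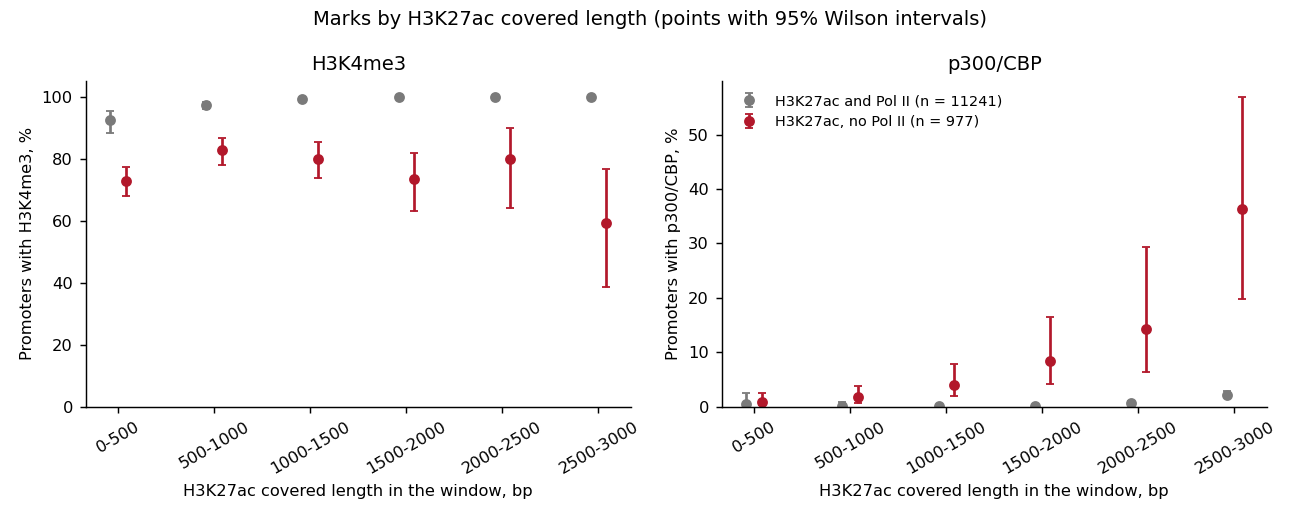
Share of promoters (%, y axis) with H3K4me3 (left) and p300/CBP (right) in 6 strata of the length that H3K27ac covered in the window (bp, x axis), for the 977 members (red) and the 11241 promoters with Pol II (grey); vertical lines are 95% Wilson intervals. The members lie below the grey points for H3K4me3 in each stratum. Their p300/CBP share is 36.4% in the stratum of longest H3K27ac, which includes related keratin-associated protein genes.

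The longest p300/CBP coverage in member windows was found at KRTAP2-3 (550 bp), KRTAP4-7 (549 bp), CXCL8, the gene of the chemokine interleukin-8 (500 bp), CHRNA1, a subunit of the muscle acetylcholine receptor (400 bp), F13A1, a subunit of coagulation factor XIII (400 bp), and ENSG00000255641 (300 bp), which was taken by position from several members with 300 bp, the others being KLRC2, FAM186A, AGXT2, CPA4 and ENSG00000288614. The window of ENSG00000255641 is nearly the same as that of KLRC2, whose TSS lies 9 bp away, so their peak is counted in each. Other members with p300/CBP, named here after their values were seen, included CSF2, the gene of the cytokine GM-CSF (200 bp), the actin-binding protein gene SVIL (251 bp) and NNMT, which encodes nicotinamide N-methyltransferase (100 bp). At CXCL8 all 950 bp of H3K27ac lay away from the TSS base, H3K4me1 covered 2915 bp of the window and the nearest Pol II peak was 35.7 kb away. At CHRNA1, H3K27ac covered 2501 bp, H3K4me1 3000 bp and H3K4me3 0 bp.

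The presence of H3K4me3 divided the members into 2 groups that differed in H3K4me1, CTCF, p300/CBP and CpG content. The 223 members without H3K4me3 had H3K4me1 in 97.8% of windows, compared with 76.5% of the 754 members with H3K4me3, a difference of 21.2 points (17.1 to 24.6). H3K4me1 covered the TSS of 67.3% of the former and 26.5% of the latter, and p300/CBP peaks were found at 10.8% and 1.46%, a difference of 9.30 points (5.70 to 14.1). CTCF peaks had the opposite order, with 11.7% and 28.8%, a difference of -17.1 points (-22.0 to -11.3). The median H3K4me1 coverage was 1750 bp in members without H3K4me3 and 800 bp in those with it. The nearest Pol II peak lay at a median of 17.2 kb from the members without H3K4me3. Of the members at 100 kb or more from any Pol II peak, 90.0% carried H3K4me3, compared with 67.3% of those closer than 5 kb. Members with neither H3K4me3 nor H3K4me1 numbered 5.

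**Figure D3:**
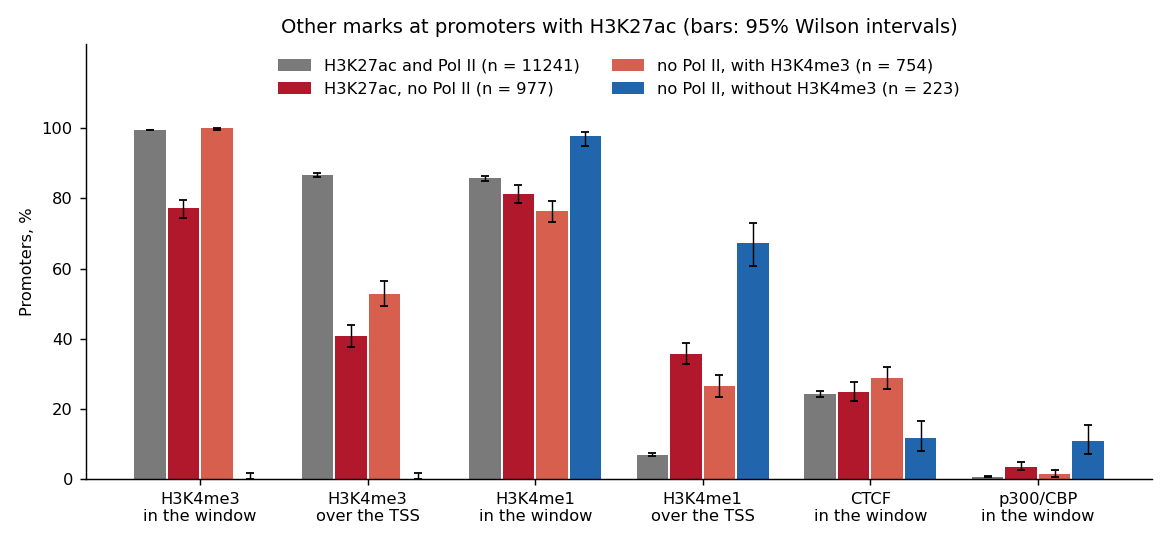
Share of promoters (%, y axis) with H3K4me3, H3K4me1, CTCF or p300/CBP in the 3 kb window or over the TSS base, for promoters with H3K27ac and Pol II (grey), all 977 members (dark red) and the members with (light red) and without (blue) H3K4me3; error bars are 95% Wilson intervals. H3K4me1 over the TSS was at 7.02% in the grey group and 67.3% in the blue group. The H3K4me3 bars in the window of the light red and blue groups, and over the TSS of the blue group, are fixed by construction.

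The 6 members without H3K4me3 that had the most H3K27ac in the window were ENSG00000284895, ITGBL1 and KRTAP2-3, each with all 3000 bp covered, KRTAP20-4 (2795 bp), FAM186A (2659 bp) and KRTAP4-7 (2549 bp). H3K4me1 covered at least 2659 bp of the window in 5 of them and 1545 bp at KRTAP20-4. Keratin-associated protein genes, which encode matrix proteins of hair, recurred in this group, and the family was counted after these values were seen. Of 94 such genes 10 had H3K27ac at the promoter and 8 of those had no Pol II peak, 6 on chromosome 17 and 2 on chromosome 21. Over all promoters with H3K27ac the share without Pol II was 8.0%. The 8 were KRTAP2-1, KRTAP2-3, KRTAP4-6, KRTAP4-7, KRTAP4-8, KRTAP4-11, KRTAP20-4 and KRTAP21-3. Their H3K27ac covered 1217 to 3000 bp, 7 lacked H3K4me3, 8 had H3K4me1, 6 had a p300/CBP peak, and TATAAA occurred in all 8 within 250 bases before to 50 after the TSS. These genes lie in clusters of similar copies, so the 8 windows are not independent of each other.

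Sequence composition followed the same division. The CpG observed over expected ratio was taken between 250 bases before and 50 after the TSS. Its median was 0.748 in the members, 0.867 in the promoters with Pol II and 0.777 in all windows. The difference between the first pair was -0.119 (-0.152 to -0.0957), and it was -0.0644 when 500 bases on each side were counted. A ratio below 0.6 was found at 354 members (36.2%, 33.3 to 39.3) and at 9.47% of the promoters with Pol II, a difference of 26.8 points (23.8 to 29.9). Among the members without H3K4me3 the median ratio was 0.270 and 185 of 223 (83.0%) fell below 0.6, compared with 169 of 754 (22.4%) of those with H3K4me3. Across all windows 32.4% fell below 0.6, which is near the share of the members, and across the windows without H3K27ac 65.4% did.

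**Figure D4:**
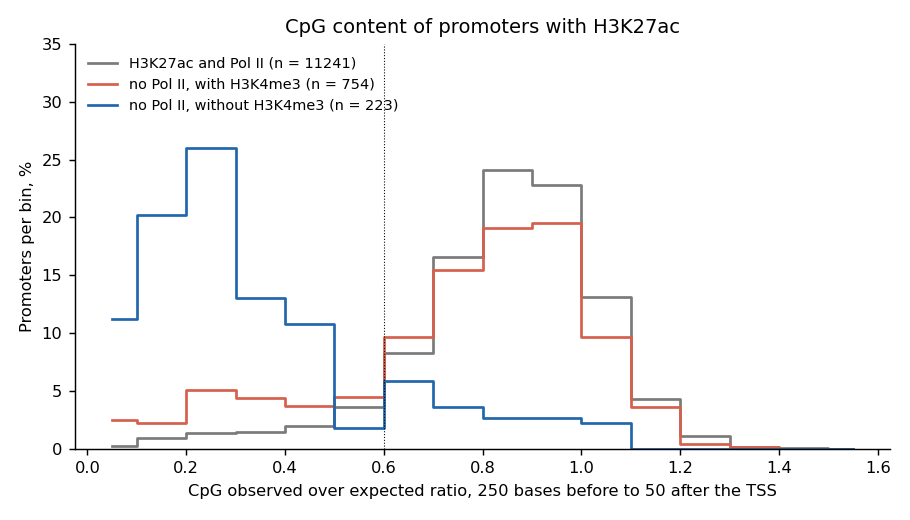
Distribution of the CpG observed over expected ratio (x axis, bins of 0.1, from 250 bases before to 50 after the TSS) in % of promoters per bin for promoters with Pol II (grey) and members with (red) and without (blue) H3K4me3. The dotted line marks a ratio of 0.6, below which lie 83.0% of the blue group and 22.4% of the red group.

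The marks were then compared within CpG classes. Where the ratio was below 0.6, H3K4me3 was present at 169 of 354 members (47.7%) and at 1019 of 1065 promoters with Pol II (95.7%), a difference of -47.9 points (-53.2 to -42.6). Where it was 0.6 or above, the shares were 93.9% and 99.9%, a difference of -6.0 points (-8.16 to -4.38), although H3K4me3 covered the TSS base at 49.6% and 87.5%. Most p300/CBP peaks of the members were at CpG-poor promoters. Below a ratio of 0.6, 32 of 354 members (9.04%) and 2.82% of the promoters with Pol II had one, a difference of 6.22 points (3.40 to 9.77), and at or above it 3 of 623 members (0.482%) and 0.550%, with an interval of the difference of -0.426 to 0.864 points. H3K4me1 over the TSS was more frequent in the members in both classes, by 29.2 points (23.3 to 34.8) below 0.6 and 16.6 points (13.5 to 19.9) at or above it. Counted over the whole window, the H3K4me1 difference was 3.72 points (-0.548 to 7.44) in the CpG-poor class and -8.40 points (-11.9 to -5.21) in the CpG-rich class. CTCF was less frequent in CpG-poor members than in CpG-poor promoters with Pol II (17.5% and 26.9%, -9.43 points, -14.0 to -4.42) and more frequent in the CpG-rich ones (29.1% and 24.1%, 5.00 points, 1.47 to 8.77). The CpG classes were compared after the data had been seen.

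Short motifs were searched in the same 300 bases on both strands, except for TATAAA, which was searched on the gene strand, and none of the motifs contains another. Motifs that are common at the promoters of housekeeping genes were less frequent in the members. The ETS motif CCGGAAG occurred at 45 members (4.61%), 22.1% of the promoters with Pol II and 14.1% of all promoters, so the difference between the first pair was -17.4 points (-18.8 to -15.8). The motif of NRF1, a regulator of mitochondrial genes, occurred at 2.56%, 13.4% and 8.42% of the same sets, and the YY1 motif AAGATGGC at 0.921%, 6.42% and 4.06%. The motif of ZBTB33 was found at 1 member and at 1.08% of the promoters with Pol II. Restricted to promoters with a CpG ratio of 0.6 or above, the ETS motif occurred at 6.74% of the members and 23.2% of the promoters with Pol II, a difference of -16.4 points (-18.3 to -14.0). The GC box GGGCGG was found at 64.8% of the members, 76.6% of the promoters with Pol II and 61.4% of all promoters, and CCAAT at 31.0%, 37.2% and 36.0%. The CRE motif TGACGTCA was found at 1.84%, 3.67% and 2.68%.

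TATAAA and AP-1 showed the opposite order. TATAAA occurred at 57 members (5.83%), 3.15% of the promoters with Pol II and 7.02% of all promoters, a difference of 2.69 points (1.34 to 4.36), and the AP-1 motif TGANTCA at 64 members (6.55%), 3.77% and 5.40%, a difference of 2.78 points (1.34 to 4.54). The members without H3K4me3 held TATAAA in 11.2% and AP-1 in 13.9%, compared with 4.24% and 4.38% of the members with H3K4me3. A motif match describes the sequence and does not show that a factor was bound.

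The members also differed from the promoters with Pol II in the genes around them. A TSS of another coding gene on the opposite strand lay within 1 kb upstream of 18 members (1.84%) and of 15.8% of the promoters with Pol II, against 9.45% of all windows. The difference between the first pair was -14.0 points (-15.0 to -12.8), and -14.8 points (-15.9 to -13.2) at CpG ratios of 0.6 or above. A window with such a neighbour could also be excluded from the members by the Pol II peak of the neighbour. A lncRNA TSS on the opposite strand lay in 13.2% of the member windows and 19.9% of the windows with Pol II, a difference of -6.67 points (-8.79 to -4.29). The share over all windows was 14.8%, near that of the members. In contrast, 298 members (30.5%) had another annotated coding TSS of the same gene at least 3 kb away. The share was 20.8% at the promoters with Pol II, a difference of 9.73 points (6.82 to 12.8), and 21.4% over all windows. At 67 of these 298 genes (22.5%, 18.1 to 27.6) a Pol II peak overlapped the window of such another TSS, as at KCNIP3, CHRNA1 and IFITM1. The share was 28.9% at the corresponding promoters with Pol II, a difference of -6.42 points (-11.2 to -1.04), and 23.5% over all windows. The rule used the same Pol II peaks, so these shares are a description.

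Pol II peaks elsewhere in the gene are given as a description, because the rule used the same peak list. Of the 955 members whose genes reach past the window, 296 (31.0%, 28.1 to 34.0) had a Pol II peak within the rest of the gene, compared with 52.1% (51.2 to 53.1) of the genes with Pol II at the promoter and 18.5% (17.6 to 19.4) of those without promoter H3K27ac. The first difference was -21.1 points (-24.1 to -18.0). Since the members were selected on Pol II at the TSS, broad Pol II domains that begin in the window and run into the gene add to the comparison group alone.

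By chromosome, the share of H3K27ac promoters without Pol II ranged from 6.16% to 12.4%, and the intervals of all 23 chromosomes included 8.0%. Gene families and response groups were then counted among the members. Because the counts use the same Pol II readout that selected the members, they are given as a description beside the 8.0% of all H3K27ac promoters. No member was found among the 78 mitochondrial ribosomal protein genes, 37 proteasome subunit genes, 34 aminoacyl-tRNA synthetase genes, 30 Mediator subunit genes, 37 replication-dependent histone genes, 38 DNA replication and cell cycle genes or 46 DNA repair genes with promoter H3K27ac. The 95% interval excluded 8.0% for the mitochondrial ribosomal (up to 4.69%) and DNA repair lists (up to 7.71%) alone. It included 8.0% for the others. The list made for cytosolic ribosomal proteins held 1 member of 92, RPS6KA1, which encodes a kinase of ribosomal protein S6 and matched the list by its symbol alone. The respiratory chain list held COX6B2, 1 of 87. Of 451 promoters with H3K27ac in the C2H2 zinc finger list, 15 were members (3.33%), and of 197 solute carrier genes 12 (6.09%). The zinc finger list was matched by symbol, and its members include ZNF593OS, whose symbol marks a gene opposite ZNF593.

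**Figure D5:**
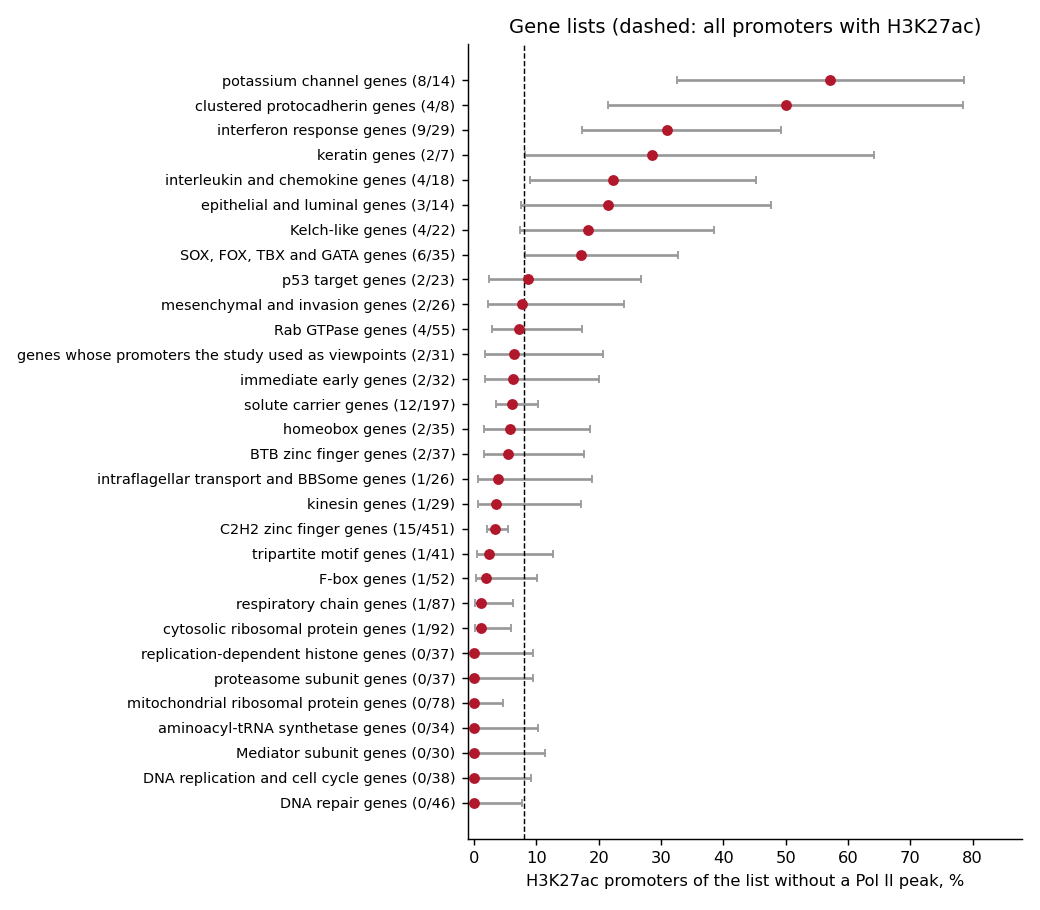
Share of the promoters with H3K27ac that had no Pol II peak (%, x axis) in each gene list with at least 5 promoters with H3K27ac, with 95% Wilson intervals and, after each name, members and promoters with H3K27ac; the dashed line marks 8.0%, the share over all 12218 promoters with H3K27ac. The list named after cytosolic ribosomal proteins includes kinases of ribosomal protein S6 that match by symbol, and that of C2H2 zinc finger genes includes ZNF593OS.

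Of 95 potassium channel genes 14 had H3K27ac at the promoter, and 8 of these had no Pol II peak: KCNS3, KCNIP3, KCNH1, KCNJ11, KCNAB3, KCNJ10, KCNK15 and KCNG3. All 8 had H3K4me3, their H3K27ac covered 300 to 1400 bp, and p300/CBP was found at 0. At KCNS3, a modulatory subunit of voltage-gated channels, H3K27ac covered 1400 bp, H3K4me3 2300 bp and the nearest Pol II peak lay at 90.5 kb. At KCNH1, an ether-a-go-go channel, H3K27ac covered 1100 bp, H3K4me3 800 bp and CTCF 689 bp. Of the 8 clustered protocadherin genes with H3K27ac, which encode neuronal adhesion molecules and are known for CTCF binding at their promoters, 4 were members, namely PCDHB9, PCDHB11, PCDHB14 and PCDHA13. These 4 had 250 to 300 bp of H3K27ac and 350 to 800 bp of H3K4me3, 4 of 4 had CTCF over 250 to 700 bp of the window, and 0 had H3K4me1. Their promoters are related copies within 1 locus on chromosome 5.

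Of 35 SOX, FOX, TBX and GATA genes with H3K27ac, 6 were members, which encode transcription factors of development and differentiation. TBX1 had 1100 bp of H3K27ac and 1750 bp of H3K4me3, SOX5 750 and 1300 bp, FOXO1 400 and 2423 bp, FOXJ1 400 and 850 bp, FOXF2 300 and 860 bp, and FOXC2 116 and 0 bp. H3K27ac did not cover the TSS base at any of the 6, whereas a 3800 bp H3K4me3 region covered that of FOXO1. Of 35 homeobox genes the members were DLX3 (237 bp of H3K27ac) and HOXD12 (28 bp). The Kelch-like list held KLHL4, KLHL29, KLHL2 and KLHL15, 4 of 22, and all 4 had H3K4me3. KLHL4 differed from them in carrying a p300/CBP peak of 100 bp.

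Interferon response and cytokine genes were also among the members. Of 29 interferon response genes with promoter H3K27ac, 9 were members: the guanylate-binding protein genes GBP1 and GBP2, the oligoadenylate synthetase genes OAS1 and OAS3, the antiviral GTPase genes MX1 and MX2, and IFITM1, XAF1 and BST2. H3K27ac covered 1400 bp at GBP1, 950 bp at OAS3, 850 bp at IFITM1, 750 bp at GBP2, 700 bp at MX2, 650 bp at XAF1, 250 bp at OAS1 and MX1 and 200 bp at BST2. Of the 9, 7 had H3K4me3, 8 had H3K4me1, 7 had H3K27ac over the TSS, 7 had a CpG ratio below 0.6 and 0 had p300/CBP or CTCF. The nearest Pol II peak was 3.17 kb away at XAF1 and 3.74 kb at IFITM1, and 258 kb away at MX1. The other 20 interferon response promoters with H3K27ac had Pol II.

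The interleukin and chemokine list held IL24, IL7R, CXCL8 and CCL26, 4 of 18. Of these 4 genes, 3 had p300/CBP and H3K4me3, and CCL26 had neither. IL7R, the receptor of interleukin-7, had 2242 bp of H3K27ac, 700 bp of H3K4me3 and 2408 bp of H3K4me1, with the nearest Pol II peak at 239 kb. IL24 had 2450 bp of H3K27ac, 400 bp of H3K4me3 and 3000 bp of H3K4me1, with Pol II at 6.34 kb.

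Of 14 luminal and epithelial genes with promoter H3K27ac, 3 were members (21.4%, 7.57 to 47.6). The interval includes the 8.0% of all H3K27ac promoters. TFF1, an estrogen-responsive secreted peptide, had 900 bp of H3K27ac over the TSS, 1950 bp of H3K4me1 and a p300/CBP peak of 100 bp. SPDEF, an ETS factor of secretory epithelia, had 700 bp of H3K27ac and 2695 bp of H3K4me1, and ELF3, another epithelial ETS factor, had 400 and 3000 bp. None of the 3 had H3K4me3, and 11 of the 14 luminal and epithelial promoters with H3K27ac had Pol II. From the mesenchymal list, SPARC and TGFBI, which encode extracellular matrix proteins, were members, 2 of 26. SPARC had 875 bp of H3K27ac and no H3K4me3, and TGFBI had 800 bp of H3K27ac and 650 bp of H3K4me3, both over the TSS. The keratin genes KRT34 and KRT33B, 2 of 7, had H3K4me1 and no H3K4me3.

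The immediate early genes EGR2 and ARC were members, 2 of 32. At EGR2, H3K27ac covered 1825 bp and H3K4me3 1725 bp, both over the TSS, and the nearest Pol II peak was 4.68 kb away. At ARC they covered 200 and 700 bp. From the p53 target list SPATA18 and PHLDA3 were members, 2 of 23. Of 32 listed genes whose promoters had served as viewpoints in the chromosome conformation experiments of the study, 31 had H3K27ac at the promoter. Of these 31, CXCL8 and CDCP1 were members. The study used more viewpoints than those listed. CDCP1, a transmembrane glycoprotein gene, had 1000 bp of H3K27ac and 1150 bp of H3K4me3, neither over the TSS. Its nearest Pol II peak was 7.22 kb away, and a Pol II peak overlapped the rest of the gene.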

How the data were processed

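Chromatin immunoprecipitation and sequencing covered 6 antibodies and input chromatin in MDA-MB-231 cells, and the inputs were not analysed here. The deposited files are lists of peak positions, 1 per antibody, without counts, heights or scores, on hg19. According to the methods of the study the authors aligned reads with BWA-backtrack (version 0.7.12), whereas the submitters' processing notes name Bowtie2. Uniquely mapped reads were turned into scaled signal over 50-bp bins (PASHA), the 2 replicates were pooled and peaks were the runs of bins above a threshold (50 for H3K27ac and Pol II, 30 for H3K4me1 and H3K4me3, 60 for p300/CBP and 50 for CTCF). By their names, the lists of the histone marks and of p300/CBP came from background-subtracted signal and those of Pol II and CTCF did not. A Pol II peak also needed a minimum run of 100 bp, and gaps of up to 800 bp were merged. For H3K27ac, gaps of up to 500 bp were merged, so covered length can include bins below the threshold. A promoter without a Pol II peak is therefore one without a long enough run above that threshold.

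Start sites came from GENCODE release 44 mapped to GRCh37 (Ensembl canonical, protein-coding genes, 19894 windows), and sequences from GRCh37. Overlap was 1 bp. Python 3.11.15, NumPy 2.4.6, SciPy 1.17.1, pandas 2.3.3 and matplotlib 3.10.9 were used, and overlaps and intervals were checked on simulated regions. Depth is not in the lists and replicates are merged, so the errors given are counting errors over promoters, which are not replicates. The members and the gene lists were chosen with earlier results of these data known. Genes were named by fixed rules: the 6 members with the longest H3K27ac and H3K4me3 regions over the TSS, the 6 with most p300/CBP, the 6 without H3K4me3 with most H3K27ac, the 5 farthest from Pol II, those at the edges of the rule, and up to 3 per gene list, beyond which genes were named after their values were seen. Alternatives changed the window, the H3K27ac length, the peak width, the start sites, overlapping windows and the distance to Pol II.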

Additional observations from a re-analysis of the deposited data

How the results depend on the processing

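Counting other windows or peaks gave 76 further values for 11 results, of which 35 stayed within the interval of the reported value (counts within 1.5 times). The number of members was 637 with at least 500 bp of H3K27ac, 2980 with wide peaks alone (those not below their list's median width) and 2983 over all basic TSSs. The H3K4me3 difference kept its sign: -16.7 points in 1 kb windows, -19.6 with 500 bp of H3K27ac, -5.85 with wide peaks, -25.7 over all basic TSSs, -45.8 over the TSS base and -19.1 within strata of H3K27ac length. The H3K4me1 difference reversed to 29.4 points in 1 kb windows, 28.8 over the TSS base and 3.92 within the strata, and was -1.26 with 500 bp of H3K27ac. The CTCF difference turned in sign, with intervals that excluded 0: -2.83 points (-4.34 to -1.26) with wide peaks and 3.82 (0.369 to 7.27) within the strata. The p300/CBP difference was 1.60 points in 1 kb windows, 4.25 with 500 bp of H3K27ac, 0.552 over the TSS base and 0.129 (-0.220 to 0.554) with wide peaks. The share with Pol II elsewhere in the gene was 39.1% with 1 kb windows, 25.1% with wide peaks, 44.7% over all basic TSSs and 25.5% without Pol II within 5 kb. The CpG difference was -0.0644 with 500 bases on each side. The causes of these changes were not tested, except that with wide peaks a promoter whose Pol II peak is narrow becomes a member. No paired analysis was possible because each list merges its replicates, which also prevents leaving a replicate out. The lists give no depth or height, and Pol II below the threshold cannot be told apart from no Pol II.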

Other observations

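The list of 7676 promoters without H3K27ac gives the remaining context for the members. H3K4me3 was found at 6.94% of them, H3K4me1 at 18.0%, CTCF at 6.71% and p300/CBP at 0.417%. A TATAAA match lay in the stretch from 45 to 15 bases before the TSS at 38 members (3.89%), near the 3.94% of all windows. The share was 1.71% at the promoters with H3K27ac and Pol II and 7.20% at the promoters without H3K27ac. The members without H3K4me3 held such a match in 17 of 223 (7.62%). Their genes spanned a median of 21.4 kb, compared with 41.6 kb over all members and 33.0 kb over the genes with Pol II at the promoter. The nearest p300/CBP peak lay at a median of 71.4 kb from the TSS of the members without H3K4me3 and at 153 kb over all members. At the 298 members with another start site at least 3 kb away, H3K27ac was found at such a site in 104 (34.9%), against 34.8% of the corresponding promoters with Pol II.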
